A study of Rattus norvegicus with 24 samples.

Results

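The genes described here are 30 named genes of oligodendrocytes and their myelin, measured in the nucleus accumbens of rats. A member was taken from the array table wherever its symbol stood among the gene symbols of a transcript cluster, the set of probes that the array reads as 1 transcript. Of the 30 members, 29 had a cluster, each exactly 1, out of 68842 clusters in all. No row carried Cnp, a myelin enzyme, so it has no value here. All 29 clusters lay on the chromosome that RefSeq gives for the gene. The cluster of Tf also carried Srprb and that of Fa2h also carried Wdr59, so their signals cannot be given to 1 gene alone.

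Oligodendrocytes wrap the axons of the brain in myelin, a stack of lipid-rich membrane held together by a small set of very abundant proteins. They come from dividing precursor cells that carry the receptor Pdgfra and the proteoglycan Cspg4. The transcription factors Olig1, Olig2, Sox10 and Myrf switch on the myelin genes as the cells mature. The nucleus accumbens is ventral striatal grey matter crossed by bundles of myelinated fibres.

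The study profiled male Sprague Dawley rats, with 1 array per rat. The groups were saline controls (CT, 6 arrays), shock-resistant rats that kept taking methamphetamine (METH) under footshocks (SR, 6), shock-sensitive rats that cut their METH intake when shocked (SS, 6), and saline rats that were yoked to an SR partner (YSR, 3) or to an SS partner (YSS, 3) and got its shocks without any link to their own presses. Shocks came with reinforced presses, so SR rats and their yoked partners received more of them than SS rats and theirs, and the number of shocks cannot be told apart from group. Tissue was taken the day after a second cue test, following about a month of withdrawal. SR and SS rats were sorted afterwards by their response to punishment, so that drug, shocks, recent testing and differences present before the drug cannot be told apart in comparisons of SR or SS with CT.

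The signals are log2 values, so that a difference of 1 is a doubling of signal. Over all clusters the median of an array ran from 4.87 to 5.22, and over the 9044 clusters past the signal filter from 11.61 to 11.89. That filter kept clusters with a CT mean higher than that of the bioB spike-in (9.45), and 17 of the 29 members passed it. The other 12 were Mbp, Gjb1, Cntn2, Hapln2, Fa2h, Aspa, Sox10, Olig2, Nkx6-2, Gpr17, Enpp6 and Cspg4. On every array, 13 members were above the 95th percentile of the negative controls (9.63 to 10.32). Another 6 (Mbp, Mag, Hapln2, Myrf, Olig1 and Bcas1) were above it on some arrays, and 10 on none. The CT means of Gjb1 (5.80), Sox10 (5.96), Nkx6-2 (5.76) and Cspg4 (5.70) were near the negative controls' median, 5.83 to 6.08 by array. The signals of these genes cannot be told apart from background. Levels are not compared between genes, since probe sets differ in brightness. Coordinates are those of the array table, whose genome build is not stated in the sources used here.

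Both groups of METH takers had higher myelin gene signals than the saline groups on average, but no member differed between any groups at an adjusted p under 0.05. Both taker means lay above all 3 saline means for 25 of the 29 members, against 15.1% of the 9044 clusters past the filter. The exceptions were Ugt8, Sox10, Enpp6 and Cspg4. The lowest of the 5 group means was that of YSS for 24 members, against 18.9% of those clusters, and the highest was that of SR for 20 members (28.5% of those clusters). SS had the highest mean for 8 members (Mog, Mobp, Cldn11, Plekhb1, Aspa, Ptgds, Myrf and Olig2) and YSR for Cspg4 alone. The F test over the 5 groups called 0 members at an adjusted p under 0.05 (0.0111% of the clusters past the filter), with a smallest adjusted p of 0.211, and 17 were at an unadjusted p under 0.05 (10.8% of those clusters). The orders of means were chosen for description after the data were seen. In tissue pieces, fewer oligodendrocytes and less myelin RNA per cell cannot be told apart.

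**Figure D1:**
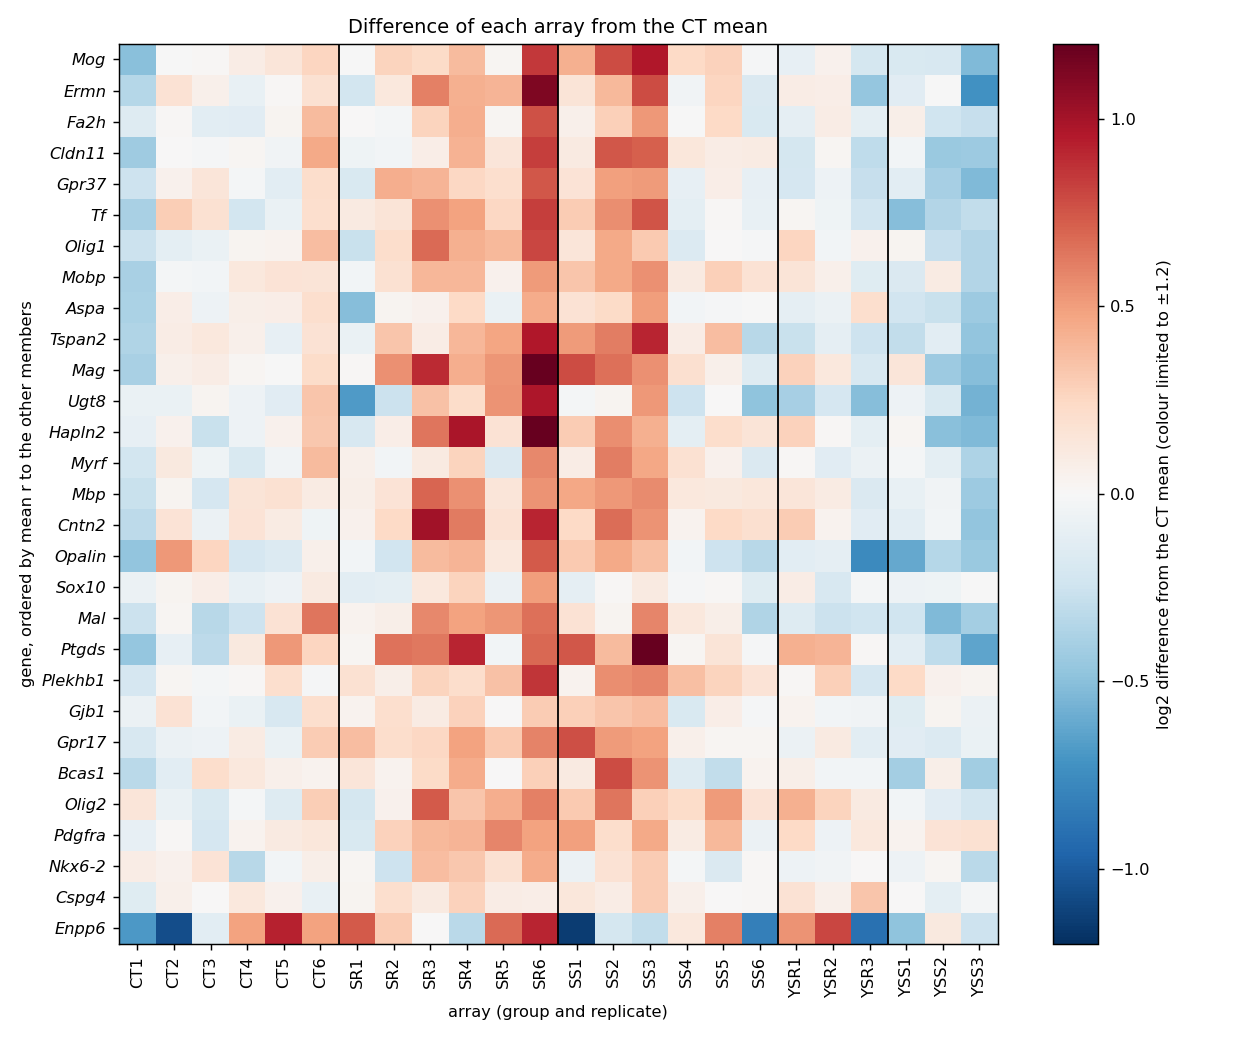
Difference of the log2 signal of each of the 29 members (rows) on each of the 24 arrays (columns, by group and replicate) from that member's CT mean, with red above and blue below. SR replicates 3, 4 and 6 and SS replicates 2 and 3 are red for nearly every member. CT replicate 1 and YSS replicate 3 are blue for most, while Enpp6 in the bottom row shows a pattern of its own.

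In SR against CT, all 29 members had a higher mean in SR, counting Gjb1, Sox10, Nkx6-2 and Cspg4, which were near background. The median difference over the members was 0.32 on the log2 scale, against 0.03 over all clusters past the filter. At an unadjusted p under 0.05, 15 members were higher and 0 lower, where 15.9% of the clusters past the filter were higher and 5.38% lower. Those 15 were 10 of the 17 members past the filter and 5 of the 12 under it, and over all clusters 5.72% were higher. At an adjusted p under 0.05, 0 of 29 members were called, against 1.99% of the clusters past the filter in either direction and the smallest adjusted p of a member was 0.0687. The SR and CT arrays overlapped for all 29 members, and 1.69% of the clusters past the filter were higher in SR without overlap.

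In SS against CT, 26 of 29 members were higher in SS, with a median difference of 0.23 (0.14 without SS replicate 3), against 0.07 over the clusters past the filter. At an unadjusted p under 0.05, 9 were higher and 0 lower, where 5.97% of the clusters past the filter were higher and 0.962% lower. Over all clusters 2.47% were higher. The smallest adjusted p was 0.453. SS and CT overlapped for all 29 members, where 1.19% of the clusters past the filter were higher without overlap. This comparison shares its control arrays with that of SR, so the 2 are not independent. Between SR and SS no member reached an unadjusted p under 0.05, against 12.5% of the clusters past the filter. The median difference of SR from SS was 0.06, and the members ran from -0.16 in Mog to 0.68 in Enpp6. For Mag the difference of SR from SS was 0.30, with a 95% interval from -0.11 to 0.71.

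**Figure D2:**
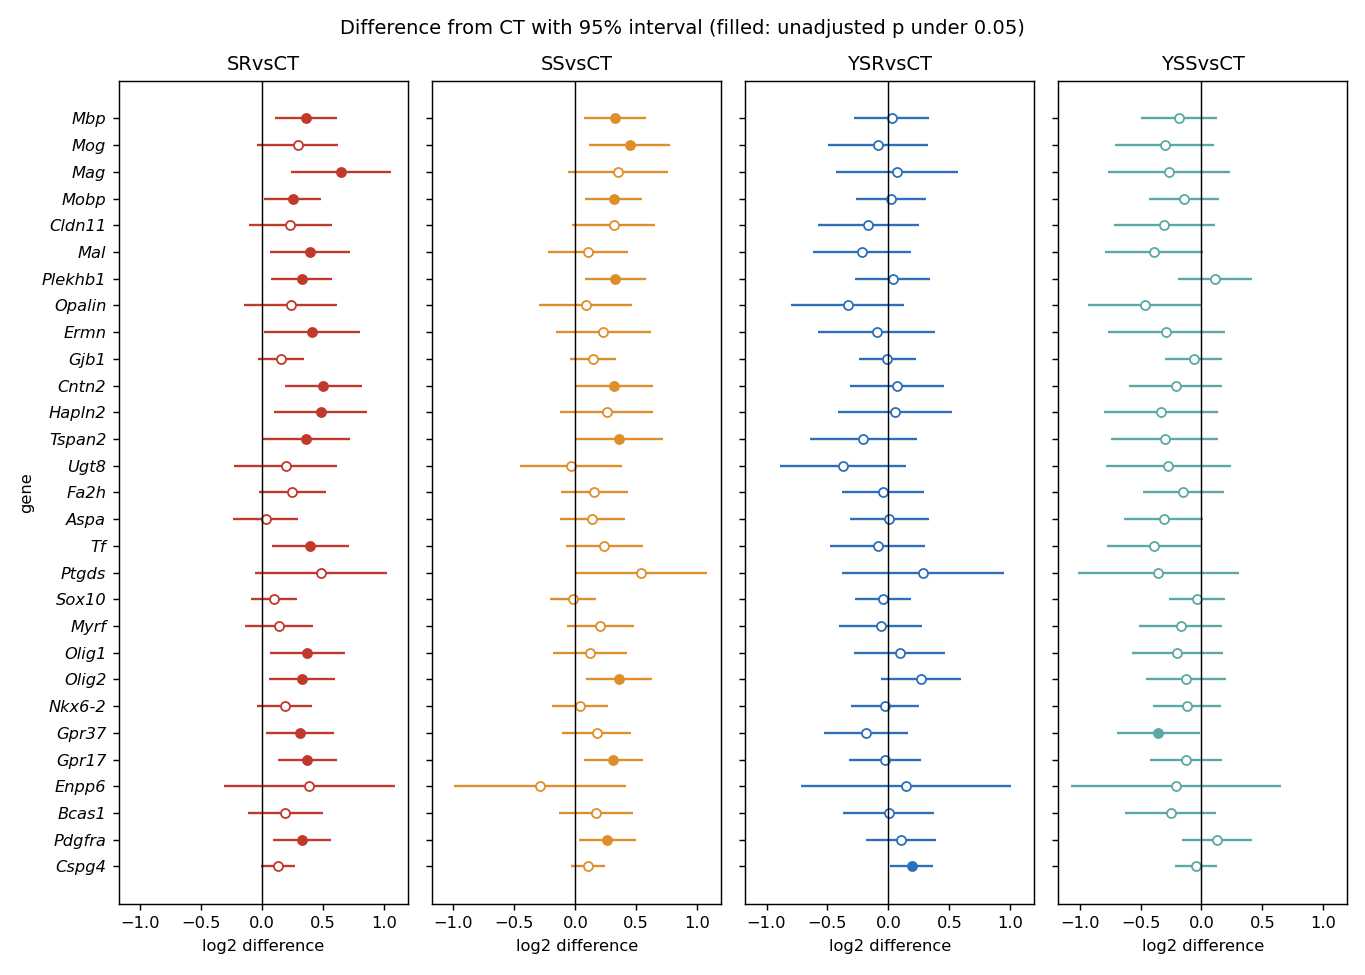
Log2 difference of SR, SS, YSR and YSS from CT for each of the 29 members, as points with 95% intervals from limma, filled where the unadjusted p was under 0.05. All 29 points lie above 0 for SR, 26 for SS, 14 for YSR and 2 for YSS.

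The 7 measured genes of compact myelin and sheath adhesion were higher in SR than in CT in every case, by 0.23 to 0.65. At an unadjusted p under 0.05, 5 of these 7 were higher in SR and 4 in SS, where 15.9% and 5.97% of the clusters past the filter were. The widest gap was that of Mag, an adhesion glycoprotein of the innermost layer of the sheath (chromosome 1, 89345326 to 89360799). Mag ran from 9.27 to 9.88 with a median of 9.70 in CT, from 9.67 to 11.13 with a median of 10.20 in SR, and from 9.51 to 10.44 with a median of 10.03 in SS. Of the 6 SR arrays, 5 lay above every CT array and SR replicate 1 lay among them. The 3 YSR arrays read 9.94, 9.78 and 9.47, and the 3 YSS arrays 9.80, 9.22 and 9.15, all within or below the range of SR. Mag was higher in SR than in CT by 0.65 ± 0.20 (SE) on the log2 scale (limma, adjusted p = 0.0687). No CT array was above the 95th percentile of the negative controls for Mag, so no fold is given.

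Mog, a glycoprotein of the outermost myelin surface (chromosome 20, 2003978 to 2014290), ran from 12.20 to 12.96 with a median of 12.76 in CT, from 12.70 to 13.55 with a median of 12.95 in SR, and from 12.69 to 13.66 with a median of 13.05 in SS. The YSR arrays read 12.61, 12.75 and 12.49, and the YSS arrays 12.52, 12.51 and 12.18. All 3 YSS arrays lay below all 6 SS arrays, whereas SR and SS both overlapped CT. Mog was 1.68-fold higher in SS than in YSS, a log2 difference of 0.75 ± 0.20 (limma, adjusted p = 0.533), the smallest adjusted p of any member in that comparison.

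The other compact myelin genes were also above CT on average in both taker groups. Mbp, which zips the inner faces of the membrane together, was higher by 0.36 in SR and by 0.32 in SS than in CT (adjusted p = 0.141 and adjusted p = 0.469). Mobp, a second basic protein of compact myelin, was higher by 0.25 and 0.32 (adjusted p = 0.197 and adjusted p = 0.548), and Plekhb1, a membrane protein of myelinating glia, by 0.32 and 0.33 (adjusted p = 0.12 and adjusted p = 0.575). Mal, a lipid-raft protein of the sheath, was higher by 0.39 in SR (adjusted p = 0.149) and by 0.11 in SS (adjusted p = 0.934). Cldn11, which forms the tight junctions of myelin, was higher by 0.23 in SR and by 0.31 in SS, with 95% intervals of -0.11 to 0.57 and -0.02 to 0.65.

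**Figure D3:**
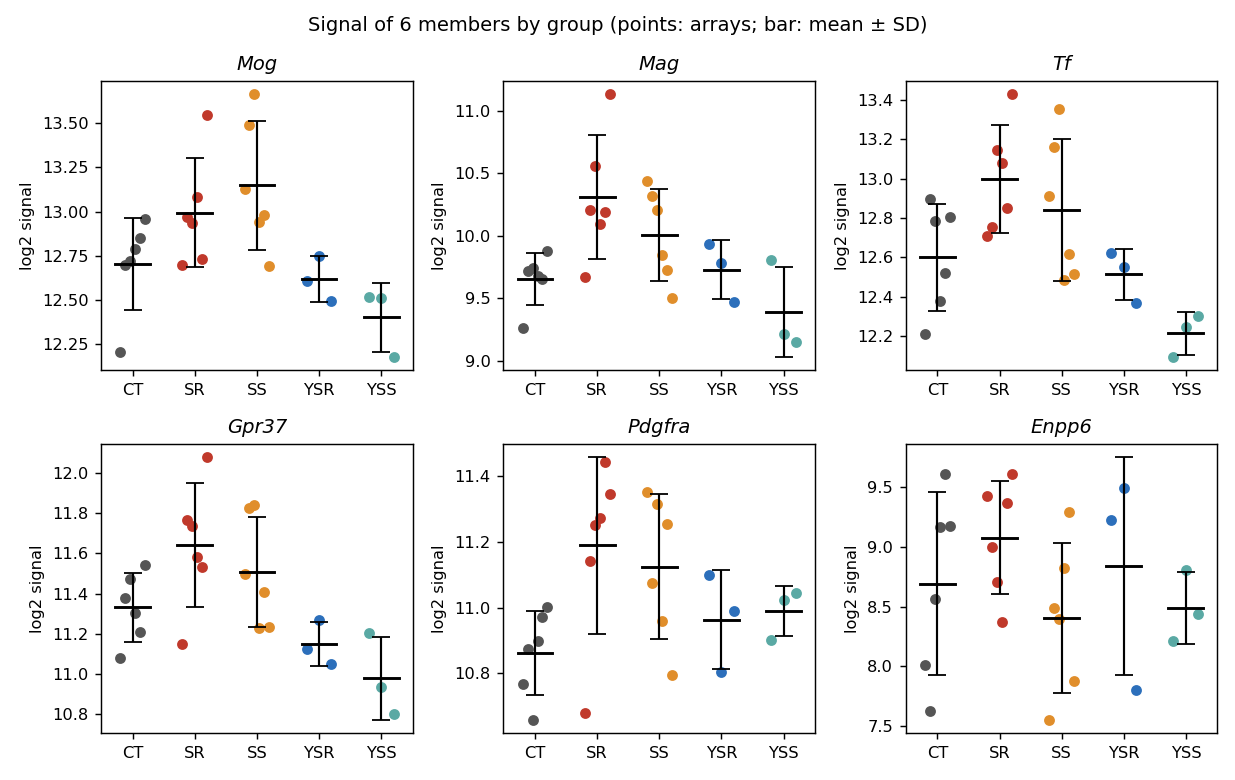
Log2 signal of Mog, Mag, Tf, Gpr37, Pdgfra and Enpp6 on each array (points) by group, with the group mean and SD as bars, each panel on its own scale. SR replicate 6 is the highest SR array for Mog, Mag, Tf and Gpr37, and the groups of Enpp6 spread widely and overlap.

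Among the 6 genes of the sheath edge, the node region and the oligodendrocyte membrane, all were higher in SR than in CT, 4 of them at an unadjusted p under 0.05 (15.9% of the clusters past the filter, 5.72% of all), and 2 in SS (5.97% and 2.47%). Cntn2, the adhesion molecule next to the node of Ranvier, was higher by 0.50 in SR and by 0.32 in SS (adjusted p = 0.108 and adjusted p = 0.565). Cntn2 ran from 8.22 to 8.69 in CT, from 8.58 to 9.53 in SR and from 8.57 to 9.19 in SS, so the groups overlapped at their edges. Hapln2, a link protein of the matrix at nodes, was higher by 0.48 and 0.26 (adjusted p = 0.178 and adjusted p = 0.716). Both genes were under the signal filter. Ermn, a cytoskeletal protein of late oligodendrocytes, was higher by 0.41 and 0.23 (adjusted p = 0.212 and adjusted p = 0.872), and Tspan2, a membrane tetraspanin, by 0.36 in each (adjusted p = 0.229 and adjusted p = 0.706). Opalin, a sialylated membrane glycoprotein of oligodendrocytes, was higher by 0.23 and 0.09, with 95% intervals of -0.15 to 0.61 and -0.29 to 0.46. Gjb1, a gap junction protein of oligodendrocytes, was higher by 0.15 in each (adjusted p = 0.36 and adjusted p = 0.68).

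Of the 5 lipid, iron and metabolic genes, all were higher in SR than in CT, and 1, Tf, at an unadjusted p under 0.05, a share near the 15.9% of the clusters past the filter. Tf, the iron carrier that oligodendrocytes make, ran from 12.21 to 12.90 in CT with a median of 12.65, from 12.71 to 13.43 in SR with a median of 12.97, and from 12.48 to 13.35 in SS with a median of 12.76. The 3 YSS arrays, at 12.09, 12.25 and 12.30, were below every SR and every SS array, and the 3 YSR arrays (12.62, 12.55 and 12.37) were below every SR array. Tf was 1.32-fold higher in SR than in CT (log2 difference 0.40, adjusted p = 0.137) and 1.54-fold higher in SS than in YSS (0.63, adjusted p = 0.662).

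Ptgds, the prostaglandin D synthase that oligodendrocytes share with the choroid plexus and the meninges, had the widest gap of all members in SS against YSS, 0.89 (1.85-fold, adjusted p = 0.789). It ran from 12.19 to 14.14 in SS with a median of 12.47, against 11.74 to 12.72 in CT and 12.17 to 13.12 in SR. The highest reading was SS replicate 3, at 14.14. The choroid plexus markers read 8.37 on average in SS replicate 1 and 5.13 to 5.53 in the other 23 arrays, with 0 of 8 past the signal filter, and Ptgds read 12.95 in SS replicate 1. The part of other tissue in the Ptgds values was not tested. Of the enzymes, Ugt8, which makes galactolipid, differed from CT by 0.19 in SR and -0.03 in SS, and Fa2h, which hydroxylates its fatty acids, by 0.24 and 0.16. Aspa, which breaks down N-acetylaspartate to acetate for lipid synthesis, differed by 0.03 and 0.14. None of these 3 reached an unadjusted p under 0.05 against CT.

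Of the 5 transcription factors, Olig1 and Olig2 had the widest differences from CT in SR. Olig1 was higher than CT by 0.37 in SR and by 0.12 in SS (adjusted p = 0.145 and adjusted p = 0.906), and Olig2, its neighbour on chromosome 11, by 0.32 and 0.36 (adjusted p = 0.189 and adjusted p = 0.453). Olig2 read 6.35 ± 0.19 in CT, 6.68 ± 0.35 in SR and 6.71 ± 0.18 in SS (SD, n = 6), low on this array and above the negative controls' 95th percentile on none of them. Sox10, which keeps the lineage's identity, differed by 0.10 and -0.02, Myrf, which starts myelin gene transcription, by 0.14 and 0.20, and Nkx6-2, a homeobox regulator of myelin, by 0.18 and 0.04. None of these last 3 passed the unadjusted test.

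Gpr37 and Gpr17 are receptors of maturing oligodendrocytes that, in mice, hold back their differentiation. Gpr37 ran from 11.08 to 11.54 in CT with a median of 11.34, from 11.15 to 12.08 in SR with a median of 11.66, and from 11.23 to 11.84 in SS with a median of 11.45. The YSR arrays read from 11.05 to 11.27 and the YSS arrays from 10.80 to 11.20, so that YSS lay below every SS array. Gpr37 was higher by 0.31 in SR than in CT (adjusted p = 0.184), and lower by 0.35 in YSS than in CT (adjusted p = 1), the only member at an unadjusted p under 0.05 in that comparison. Gpr17 was higher by 0.37 in SR and by 0.31 in SS than in CT (adjusted p = 0.118 and adjusted p = 0.463). Bcas1, a marker of myelin-forming oligodendrocytes, differed by 0.19 and 0.17 (adjusted p = 0.494 and adjusted p = 0.872).

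Pdgfra, the growth factor receptor of precursor cells, was higher by 0.33 in SR and by 0.26 in SS than in CT (adjusted p = 0.0998 and adjusted p = 0.636). It averaged 10.86 ± 0.13 in CT (SD, n = 6) with a median of 10.89, and ran from 10.68 to 11.44 in SR with a median of 11.26, and from 10.80 to 11.35 in SS with a median of 11.16. In SR, 5 of 6 arrays were above every CT array. The lowest group mean of Pdgfra was that of CT, and YSS was 0.13 above it. Cspg4, the proteoglycan of precursor cells, was higher by 0.13 and 0.10 (adjusted p = 0.305 and adjusted p = 0.697), and in YSR it was 0.19 above CT (adjusted p = 0.972).

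Set against the groups yoked to them, the taker groups showed the same direction for nearly all members. The labels do not say which taker each yoked rat was partnered with, so whole groups were compared without pairing. The SR and SS arrays are the same as in the comparisons with CT, so these results are not independent of those. In SS against YSS, 28 of 29 members were higher in SS, 19 of them at an unadjusted p under 0.05 (3.86% of the clusters past the filter and 2.44% of all clusters were higher), and the median difference was 0.46, against 0.05 over those clusters. The 2 groups did not overlap for 12 members (Mbp, Mog, Mobp, Cldn11, Opalin, Cntn2, Aspa, Tf, Ptgds, Olig2, Gpr37 and Gpr17), and 2.3% of the clusters past the filter and 1.56% of all clusters were higher without overlap. Without YSS replicate 3, 12 members were at an unadjusted p under 0.05. The 4 blood genes were also all higher in SS than in YSS, with a median of 0.55 and 1 at an unadjusted p under 0.05, and their part in the difference was not tested. In SR against YSR, 28 of 29 members were higher in SR, 11 at an unadjusted p under 0.05 (3.54% of the clusters past the filter and 1.98% of all clusters), with a median of 0.29 against -0.05. The SR and YSR arrays did not overlap for 4 members (Mal, Tspan2, Tf and Gpr17), where 1.28% of the clusters past the filter and 0.946% of all clusters were higher without overlap. Without YSR replicate 3 the count at an unadjusted p under 0.05 was 4, and without SR replicate 1 it was 18. Mal gave the widest gap there, 0.61 (1.53-fold, adjusted p = 0.699). At an adjusted p under 0.05, 0 members and 0 of the 9044 clusters were called in either comparison. The contrast of the 2 differences, SR from YSR less SS from YSS, had a median of -0.04, and 0 members reached an unadjusted p under 0.05 against 2.5% of the clusters past the filter.

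The yoked groups themselves lay near or below CT. In YSR, 14 members were above and 15 below CT, with a median of -0.01. Over the clusters past the filter the median was 0.07, and 70.1% were above CT. At an unadjusted p under 0.05, 1 member, Cspg4, was higher (2.65% of the clusters past the filter and 1.42% of all clusters were higher). For Ugt8 all 3 YSR arrays lay below every CT array, and 0.365% of the clusters past the filter were lower without overlap. In YSS, 27 of 29 were below CT with a median of -0.21 (-0.12 without YSS replicate 3), against 0.03 over the clusters past the filter, and 1 of them, Gpr37, was at an unadjusted p under 0.05 (0.63% of those clusters were lower). The exceptions were Plekhb1 and Pdgfra. Mal read 12.51, 12.21 and 12.34 in YSS, against 12.41 to 13.39 in CT, with 2 of the 3 below every control, and Opalin differed from CT by -0.46 with a 95% interval from -0.93 to 0.00. In the same comparison all 4 haemoglobin and blood genes were lower at an unadjusted p under 0.05, with a list mean of 8.87 to 9.44 in YSS and 9.44 to 10.62 in CT, and the part of blood in these differences was not tested. Sample titles of CT, SR and SS include a mark that is missing from the yoked samples and that no source used here explains, and should it stand for a batch, batch and group cannot be told apart in any comparison of a yoked group with another. YSR was above YSS for 25 of 29 members, with a median of 0.17 (0.10 without YSS replicate 3). Of these, 2 under the filter, Cspg4 and Olig2, were at an unadjusted p under 0.05 (1.04% of all clusters and 0.641% of those past the filter were higher). The 2 yoked groups did not overlap for 5 members (Aspa, Tf, Ptgds, Olig2 and Cspg4), all higher in YSR, where 3.04% of all clusters and 2.52% of those past the filter were. All 4 blood genes were higher in YSR than in YSS as well, with a median of 0.58.

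The arrays within a group spread widely. The median over the 29 members of each array's difference from the CT mean ran from -0.26 to 0.21 in CT, from 0.00 to 0.74 in SR, from -0.01 to 0.52 in SS, from -0.13 to 0.04 in YSR and from -0.40 to -0.12 in YSS. SR and SS each overlapped CT, and all 3 YSS arrays lay below every SR and SS array. SR replicate 6 was the highest of all arrays, with SR replicates 3 and 4 at 0.37 and 0.41. SR replicate 1 was at the CT mean. SS replicates 2 and 3 stood at 0.46 and 0.52, while the other 4 SS arrays lay between -0.01 and 0.18. Without SR replicate 6 the count of members at an unadjusted p under 0.05 in SR against CT was 6, and without CT replicate 1, the lowest control, it was 9. Without SR replicate 1, the SR array with the lowest member median, it was 19. Then 5 members (Mag, Cntn2, Olig1, Gpr37 and Pdgfra) were under an adjusted p of 0.05. The share of all clusters called was not computed with any array left out, so these counts have no share beside them.

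**Figure D4:**
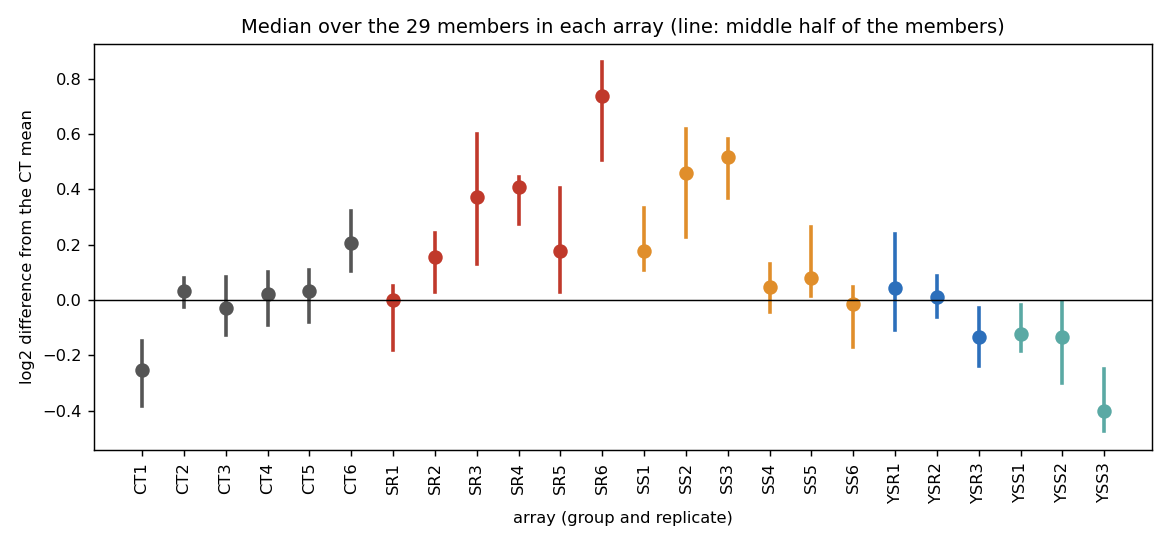
Median over the 29 members of the log2 difference from the CT mean on each of the 24 arrays (points, coloured by group), with a line from the lower to the upper quartile of the members. SR replicate 6 is the highest at 0.74, YSS replicate 3 the lowest at -0.40, and each taker group spreads from near 0 upward.

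The members covaried from array to array. Over the deviations of the 24 arrays from their group means, the median Pearson r of the 406 pairs of members was 0.588, and 67.2% of pairs were above 0.5. For the 136 pairs of members past the filter the median was 0.651, against 0.114 for pairs of all clusters past the filter, of which 18.5% were above 0.5. These correlations are descriptions, since the pairs share the same arrays, pieces of tissue and hybridisations. Mog (mean r to the other members 0.678) and Ermn (0.669) were the most typical. The precursor genes were less so, with 0.43 for Pdgfra and 0.211 for Cspg4, which was under the filter. This was not particular to them, since Nkx6-2 (0.426), Olig2 (0.435) and Bcas1 (0.448) were near Pdgfra. Enpp6, a choline phosphodiesterase of newly formed oligodendrocytes, had a mean r of 0.072 and the largest pooled SD of the members (0.645, against a median of 0.286 for the members past the filter and 0.218 for all clusters past it). Enpp6 ran from 7.63 to 9.61 in CT, from 8.37 to 9.61 in SR and from 7.55 to 9.29 in SS, so that the groups overlapped almost entirely, and it was under the filter and below the negative controls' 95th percentile on all arrays. The clusters most like it were those of Tatdn2 (r = 0.779) and Clip3 (0.742), a likeness looked up after its values were seen.

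**Figure D5:**
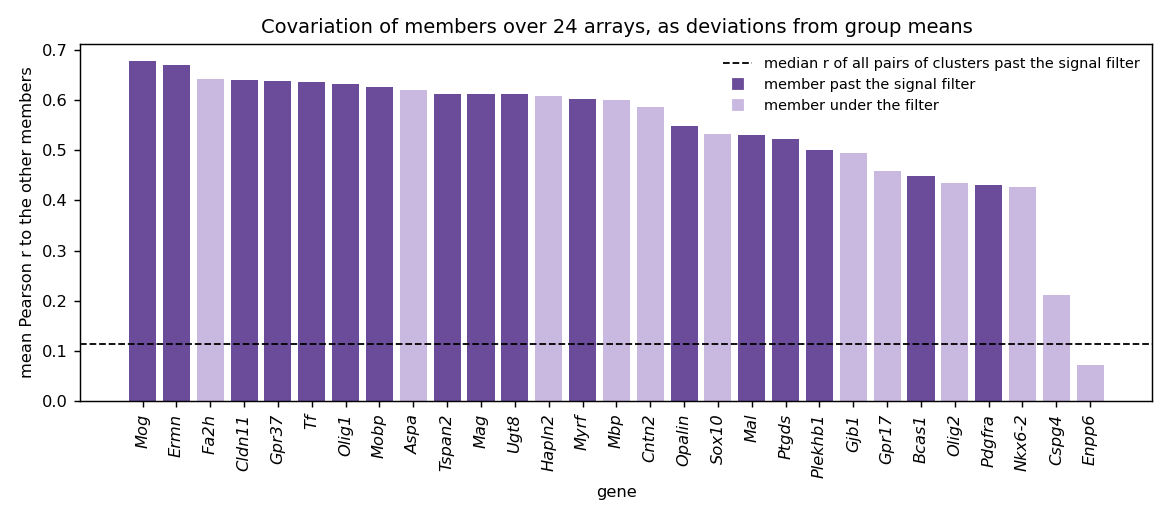
Mean Pearson r of each member to the other members over 24 deviations from group means, dark for members past the signal filter and pale for those under it, with a dashed line at 0.114, the median r of pairs of all clusters past the filter. All members but Enpp6 lie above the line, and Cspg4 is the next lowest.

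Among 3568 clusters past the filter with 1 gene symbol that are not members, those most like the mean of the 7 compact myelin members were Ttyh2 (r = 0.932), Abca2 (0.921), Gna12 (0.916), Cers2 (0.897) and Neo1 (0.894). Abca2 is a lipid transporter of oligodendrocytes and Cers2 makes the very long ceramides of myelin lipids. The least like were Lzts1 (-0.678), Kcnma1 (-0.64), Kalrn (-0.635), Gphn (-0.629) and Myt1l (-0.627), of which Gphn scaffolds inhibitory synapses, Kcnma1 is a potassium channel and Kalrn acts in dendritic spines.

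Of 30 further oligodendrocyte and myelin genes, 10 were higher and 0 lower in SR than in CT at an unadjusted p under 0.05, with a median difference of 0.21. Of these 10, 5 were among the 11 genes past the filter, where 15.9% of clusters were higher, and 5 among the 19 under it, where the share over all clusters was 5.72%. Qdpr, which regenerates tetrahydrobiopterin, led that list. It rose by 0.45 in SR (adjusted p = 0.0417), the single call among those 30. Of the clusters past the filter, 1.99% were called in either direction, so 1 call is not read as a result about the list. How that call fared under the alternatives is not given here. The other lineage and precursor genes gave 0 of 18 at an unadjusted p under 0.05 in SR against CT, with a median of -0.01. Of these 18, 4 were past the filter, where 15.9% of clusters were higher and 5.38% lower. Over all clusters 5.72% were higher and 13% lower, and no contrast with the myelin genes is read from the count. Of 23 genes of cholesterol and galactolipid synthesis, 6 were higher in SR at an unadjusted p under 0.05. They were 2 of the 12 past the filter, a share near the 15.9% of all clusters past it, and 4 of the 11 under it, against 5.72% over all clusters. The smallest p values were those of Gltp (0.50, adjusted p = 0.081), Elovl1 (0.40, adjusted p = 0.0669) and Gal3st1 (0.21, adjusted p = 0.145), which handle the glycolipids and long fatty acids of myelin. Over the deviations from group means, the mean of the further oligodendrocyte genes followed the compact myelin mean with r = 0.92. The mean of the cholesterol and galactolipid list did so with 0.707, that of the lineage list with 0.585 and that of astrocytes with 0.465.

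In SR against CT, 1 of 10 astrocyte genes (Aldoc, 0.30), 0 of 10 microglial genes, 0 of 8 endothelial genes and 0 of 10 genes of striatal projection neurons were at an unadjusted p under 0.05. Of 10 genes of all neurons, 2 were, Eno2 and Thy1. With 15.9% of the clusters past the filter higher, the counts of 1 and 2 are near that share, and no contrast between cell types is read from them. Eno2 rose by 0.45 (adjusted p = 0.0381), where 1.99% of the clusters past the filter were called in either direction. That call rests on the brightest of 3 clusters with that symbol, which has no chromosome position in the table. The 10 cortical glutamatergic genes were all lower than in CT in both SR (median -0.13) and SS (median -0.30). In SR 0 and in SS 2 of them were at an unadjusted p under 0.05. Of those 2, 1 was among the 3 past the filter, where 0.962% of clusters were lower in SS. The other was under it, and 6.24% of all clusters were lower. Among the 3, Slc17a7 passed the filter on its CT mean but did not pass one on the mean of all 24 arrays. The filter can favour clusters that are high in CT, so that count is not read as support for a lower level in SS. The mean of the 10 genes ran from 6.82 to 7.21 in SS and from 7.12 to 8.12 in CT. That mean and the compact myelin mean had an r of -0.465 over the deviations of the arrays from their group means. The same r was -0.313 for the list of striatal projection neurons and 0.395 for that of all neurons. These r values do not cover the differences between groups. The part of the dissection in the myelin values was not tested. All 4 blood genes were lower than in CT on average in SR (median -0.38) and in SS (median -0.36), none at an unadjusted p under 0.05.

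The start regions of 24 of the 30 members, Cnp included, were found in RefSeq (assembly GRCr8), each from 250 bases before to 50 after the gene's start. Mog, Ermn, Sox10, Myrf, Olig1 and Bcas1 had no entry. The letters ACAAAG, at the core of SOX protein sites, occurred on either strand in 6 of the 24 (Mag, Opalin, Hapln2, Mobp, Cnp and Enpp6), or 25%, against 18.8% of 33469 promoters. The E-box CAGCTG, which OLIG proteins can bind, occurred in 6 (Opalin, Hapln2, Ptgds, Aspa, Cnp and Enpp6), against 15.1%, and the E-box CAGATG in 2 (Ptgds and Gpr37), or 8.33%, against 16.6%. The motifs do not overlap one another. A match is a description and not a site.

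The promoters shown are those of the 3 members with an entry whose array-to-array readings were most like the rest (Fa2h, Cldn11 and Gpr37), and that of Opalin, chosen after its matches were seen because it holds both kinds of motif. All 4 are on the minus strand and are written 5′ to 3′ in the direction of the gene, with motif matches on either strand in capitals. Fa2h lies at chr19:56273431-56273730 and Cldn11 at chr2:114149490-114149789, both without a match, Gpr37 at chr4:55126371-55126670 with 1 match, and Opalin at chr1:249858141-249858440 with 3.
Fa2h: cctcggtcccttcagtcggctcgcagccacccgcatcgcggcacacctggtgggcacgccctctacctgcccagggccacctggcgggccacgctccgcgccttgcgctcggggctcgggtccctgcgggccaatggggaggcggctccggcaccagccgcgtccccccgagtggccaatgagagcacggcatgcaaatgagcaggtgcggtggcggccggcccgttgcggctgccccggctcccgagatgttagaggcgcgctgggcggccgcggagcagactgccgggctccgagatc
Cldn11: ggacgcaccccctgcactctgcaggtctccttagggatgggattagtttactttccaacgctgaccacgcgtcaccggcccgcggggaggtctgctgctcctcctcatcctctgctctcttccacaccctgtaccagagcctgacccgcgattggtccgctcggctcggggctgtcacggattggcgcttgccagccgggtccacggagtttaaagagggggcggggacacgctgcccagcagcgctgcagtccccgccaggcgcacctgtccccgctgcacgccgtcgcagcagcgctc
Gpr37: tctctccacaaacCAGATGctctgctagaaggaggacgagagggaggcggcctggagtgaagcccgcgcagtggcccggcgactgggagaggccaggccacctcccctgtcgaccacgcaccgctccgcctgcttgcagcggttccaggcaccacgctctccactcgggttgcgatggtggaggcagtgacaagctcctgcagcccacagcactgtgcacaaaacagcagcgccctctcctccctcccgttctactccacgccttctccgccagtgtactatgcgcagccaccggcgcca
Opalin: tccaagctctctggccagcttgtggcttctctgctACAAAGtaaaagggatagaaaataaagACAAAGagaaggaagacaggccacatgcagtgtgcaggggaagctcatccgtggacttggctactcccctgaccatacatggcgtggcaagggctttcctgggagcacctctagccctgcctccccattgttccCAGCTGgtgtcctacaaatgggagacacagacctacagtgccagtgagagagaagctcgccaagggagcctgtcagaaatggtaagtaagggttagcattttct
Of the 3 promoters chosen for likeness, 1 held any of these letters in this window.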

How the data were processed

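Log2 signals of the Affymetrix Rat Transcriptome Array 1.0 were deposited by the authors, who per the submitters' notes used Affymetrix Expression Console. No source used here states the background correction, normalization or genome build. The authors' deposited table also holds group averages, SDs, fold changes, ANOVA p-values and FDR values of their comparisons, which were not used. The methods describe RNA of individual rats, so p-values measure the spread between rats. The number of arrays limits the precision.

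The 5 groups were fitted together on all 24 arrays with limma (lmFit, eBayes, two-sided, limma 3.58.1, R 4.3.3), with tables and plots made in Python 3.11.15. Clusters whose CT mean was above the bioB mean in CT (9044 of 68842, 13.1%) were tested, with Benjamini-Hochberg adjustment over them. Members under that filter took their p and adjusted p from the same fit over all 68842 clusters. Calls used an adjusted p under 0.05, and a second count an unadjusted p under 0.05. Shares over all clusters were computed for this fit only, and not for the alternatives named below. The fit was checked on simulated data. All 30 members are named, and up to 3 genes of a marker list per comparison, by smallest p. Likeness used the mean of the compact myelin members, 7 because Cnp had no cluster. Folds are left out if 1 compared group had no array that exceeded the negative controls' 95th percentile. The members and lists were chosen with earlier results of these data known. Alternatives tried were other filters, quantile normalization, equal array medians, trended and robust moderation, array weights, the replicate number as a block, fits of 2 groups only, leaving out each array, and, chosen after seeing the data, leaving out CT replicate 3 and SR replicate 5 together.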

Additional observations from a re-analysis of the deposited data

Results flagged for a closer look

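In 87 groups of 6 arrays (29 members in CT, SR and SS), the highest or lowest array stood apart from the rest by Dixon's ratio, above 0.625, in 6 cases, where chance alone gives about 1 in 20. CT replicate 1 was the lowest control for Mog, at 12.20 with the nearest other at 12.70, for Mag, at 9.27 with the nearest at 9.65, and for Mobp, at 14.59 with the nearest at 14.94. CT replicate 6 was the highest control for Ugt8, at 12.85 with the nearest at 12.55, and for Fa2h, at 8.19 with the nearest at 7.84. SR replicate 6 was the highest SR array for Plekhb1, at 13.82 with the nearest at 13.31. These are single arrays, and no cause was tested.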

How the results depend on the processing

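In direction, the median difference over the members kept its sign in every comparison under each alternative run, apart from YSR against CT, which ran from -0.06 to 0.03 on leaving out 1 array. The 58 member differences at an unadjusted p under 0.05 kept their sign in all 1914 values under the alternatives, and 1732 of these were still under 0.05.

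With array weights, 7 members were called in SR against CT at an adjusted p under 0.05 (Mbp, Mag, Mobp, Cntn2, Hapln2, Olig1 and Pdgfra) and 4 in the F test over the 5 groups (Mog, Mobp, Cntn2 and Gpr37), where the reported fit gave 0 and 0. With arrays set to equal medians 1 was called, Mag (0.76, adjusted p = 0.0444). The share of all clusters called was not computed under these alternatives. Whether calls rose for the members alone or for clusters in general is therefore not known. The F test had 17 members at an unadjusted p under 0.05.

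Counts at an unadjusted p under 0.05 moved by over 1.5 times as follows. In SS against CT (9) they were 5 with quantile normalization and 14 with array weights. In SR against SS (0) they were 1 with equal array medians, 1 with the replicate block, 5 with array weights and 1 with 2 groups only. In YSR against CT (1) the block gave 0. In YSS against CT (1) they were 3 without a filter, 4 with quantile normalization, 0 with equal array medians, 3 with the block, 0 with array weights and 4 with 2 groups only. In YSR against YSS (2) they were 1 with quantile normalization, equal medians, the block or array weights, and 4 with 2 groups only. In SR against YSR (11) they were 7 with the block, 20 with array weights and 6 with 2 groups only. The causes were not tested, and the shares of all clusters under these alternatives were not computed.

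Leaving out 1 array at a time gave 6 to 19 members in SR against CT, 6 to 13 in SS against CT, 0 to 4 in SR against SS, 0 to 1 in YSR against CT, 0 to 6 in YSS against CT (6 without CT replicate 1), 0 to 3 in YSR against YSS, 4 to 18 in SR against YSR, 12 to 20 in SS against YSS, 0 to 2 in the contrast of differences and 12 to 21 in the F test. At an adjusted p under 0.05 the range was 0 to 5 in SR against CT and 0 to 2 in the F test, and 0 elsewhere. The set of tested clusters was held fixed in these fits, and the share of all clusters called in them was not computed.

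Arrays with the same replicate number did not pair across groups. Of 39 pairs, 13 had a correlation of deviations over 0.1, with a range of -0.545 to 0.57 and a median of -0.018. With the replicate block, 12 members were under an unadjusted p of 0.05 in SR against CT and 17 in SS against YSS. Each member had 1 cluster, so that averaging several clusters gave no other value.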
